A study of Homo sapiens with 28 samples.

Results

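The 36 genes described here encode aminoacyl-tRNA synthetases, the enzymes that attach each amino acid to its matching tRNAs before translation. They were taken by gene symbol, 20 for the cytosolic enzymes and 16 for the mitochondrial enzymes, whose symbols end in 2, out of 57820 genes in the count tables. All 36 symbols were found, each in 1 row, and all 36 passed the filter on low counts in both sets of libraries.

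All libraries are RNA-seq of SEM, an established human cell line from B-lineage acute lymphoblastic leukemia with an MLL-AF4 fusion gene. In the 24 h set the CTCF-AID2 cells came with 5-Ph-IAA (4 libraries) and without (4 libraries), and SEM cells labelled WT came with IAA (2 libraries) and without (2 libraries). CTCF-AID2 cells carry endogenous CTCF fused to a miniAID degron and mClover3, a doxycycline-inducible wild-type OsTIR1 in the AAVS1 locus, and OsTIR1(F74G) from a lentivirus with the MND promoter, and 5-Ph-IAA directs the tagged CTCF to the proteasome. The WT cells of this set lack the tag. For the 6 h set the labels give the lines dZF1, dZF10, dRBR and WT, in each of which 2 libraries had IAA and 2 had none. In the study these lines are CTCF-AID2 cells in which doxycycline induces a further CTCF. It has zinc finger 1 deleted in dZF1 and zinc finger 10 in dZF10, has no RNA-binding region in dRBR, and is full-length in the WT line. The WT line of the 6 h set is therefore called the added WT line here. The labels name IAA for all of these lines and do not say in which libraries the added CTCF was present, so auxin and added CTCF cannot be told apart there. For the CTCF-AID2 cells at 24 h the sample titles give 1 µM of 5-Ph-IAA and the treatment protocol gives 10 µM. For the WT cells that protocol gives 500 mM IAA with doxycycline, whereas the study's methods state the IAA dose in µM. Agent, dose, doxycycline and cell line all differ between the treated arms of the 24 h set and cannot be told apart.

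Each cell has a pair of charging systems. The cytosolic enzymes serve ribosomes in the cytoplasm, and 8 of them (EPRS, IARS, LARS, MARS, QARS, RARS, KARS and DARS) are held together in the multi-synthetase complex. The mitochondrial enzymes are encoded in the nucleus, imported, and serve the few proteins made inside the organelle. GARS and KARS each also give a mitochondrial form, so they are cytosolic here by symbol only. When amino acids run short, uncharged tRNAs switch on the kinase GCN2, which phosphorylates eIF2 and raises translation of the transcription factor ATF4. ATF4 acts with C/EBP partners on a composite promoter element, and many cytosolic synthetase genes are among its known targets.

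The 12 libraries of the 24 h set held 45.7 to 59.8 M counts and the 16 of the 6 h set 25.8 to 60.7 M. The cytosolic synthetase genes took 0.293 to 0.461% of the counts at 24 h and 0.312 to 0.377% at 6 h, and the mitochondrial ones 0.0586 to 0.0663% and 0.0559 to 0.0651%. Of 9 B-lineage markers, 8 were above 1 CPM (the count scaled to the library's total) in all libraries of both sets, and the 3 erythroid markers summed to at most 0.0188 CPM. T and NK markers summed to 42.8 to 84.2 CPM over 2 detected genes, myeloid markers to 13.9 to 63.7 CPM and stromal markers to 32.5 to 105 CPM, and the part of such genes in the results was not tested. CTCF mRNA was 249.8 to 256 CPM in 5-Ph-IAA-treated CTCF-AID2 cells, against 143 to 151 CPM in untreated ones, so its mRNA was higher with auxin. The mRNA does not report on degradation of the protein. In the 6 h set the 2 auxin-treated dZF1 libraries differed from each other far more than any other replicate pair (chi-square of their counts per degree of freedom 146, the lowest of all pairs being 2.85). The labels do not say that replicate libraries were separate cultures, so p-values measure the spread between libraries, which may be technical. In bulk RNA, fewer cells of a kind and less RNA per cell cannot be told apart, and CPM is a share of the counts.

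On the per-length scale of the 6 h set (TPM, which divides by gene length and scales each library to the same sum), the cytosolic genes were the more abundant class. The median of the cytosolic members was 33.9 TPM, with members between 13.6 TPM for FARSB, the β-subunit of phenylalanyl-tRNA synthetase, and 81.3 TPM for QARS, the glutaminyl enzyme. The median of the mitochondrial members was 5.58 TPM, with members between 1.12 TPM for PARS2, the mitochondrial prolyl enzyme, and 21.7 TPM for NARS2, the asparaginyl enzyme. NARS2 was the 1 mitochondrial gene among the 18 most abundant members. Of 13 amino acids with a separate gene for each compartment, 12 had the higher TPM in the cytosolic gene, by up to 14.0-fold for methionine (MARS 56.1 TPM, MARS2 4.02 TPM). Cysteine was the exception (CARS 13.8 TPM, CARS2 15.2 TPM). The ranges of these genes overlapped, at 11.3 to 18.2 TPM for CARS and 11.9 to 17.6 TPM for CARS2. Without division by length CARS was the higher, at 62.5 to 73.0 CPM, against 41.8 to 52.6 CPM for CARS2. The labels name a 3′ kit and the methods total RNA-seq. Whether division by length suits these libraries is therefore uncertain, and so are levels compared between genes. Of 35 neighbouring pairs in the order of medians, only VARS2 and PARS2 had ranges over the 16 libraries that did not overlap. These ranges pool treated and untreated libraries. The order of the genes within each library was not compared, so they do not show how stable a single step is.

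**Figure D1:**
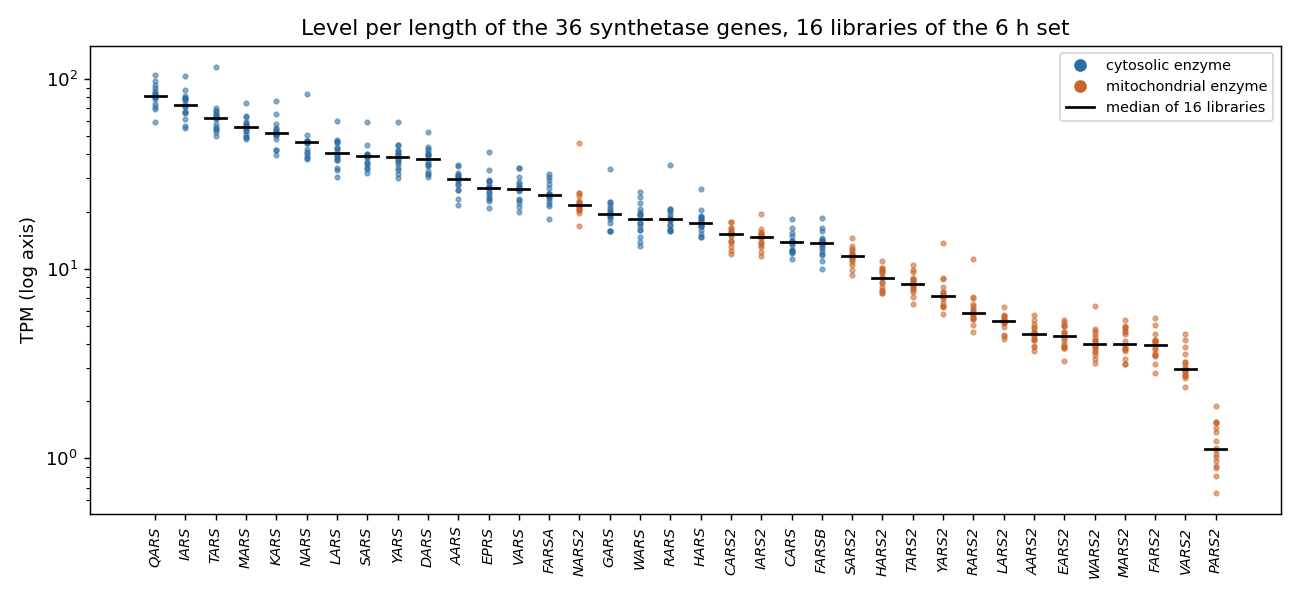
TPM (log axis) of the 36 synthetase genes in the 16 libraries of the 6 h set, sorted by the median (black bar), with each point 1 library. Cytosolic medians run between 13.6 and 81.3 TPM, and the 12 lowest genes are all mitochondrial.

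The promoters of the members were searched for sequences known from the pathway, because several cytosolic genes moved together in the comparisons that follow. RefSeq promoters (GRCh38.p14, 250 bases before to 50 after the gene start) were matched for 30 of the 36 members, 16 cytosolic and 14 mitochondrial. The core of the C/EBP-ATF composite element, TGATGNAA on either strand, lay in 6 of 16 cytosolic promoters and in 1 of 14 mitochondrial promoters (YARS2), against 3.62% of all 35116 promoters of that length. Only 2 of the cytosolic matches (AARS and IARS) lay wholly in the 250 bases before the start, where 3.14% of all promoters hold one. The matches are shown for the 6 cytosolic genes and for YARS2 with 11 bases on each side, 5′ to 3′ along the gene's strand, with the element in capitals. All 6 cytosolic matches read TGATGCAA or its reverse complement TTGCATCA, and the YARS2 match read TGATGGAA.
AARS, chr16:70323578-70323607 (GRCh37, minus strand): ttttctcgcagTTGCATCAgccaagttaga
CARS, chr11:3078637-3078666 (GRCh37, minus strand): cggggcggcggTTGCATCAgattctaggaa
IARS, chr9:95055974-95056003 (GRCh37, minus strand): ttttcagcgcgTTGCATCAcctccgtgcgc
MARS, chr12:57881836-57881865 (GRCh37, plus strand): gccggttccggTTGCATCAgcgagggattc
NARS, chr18:55289036-55289065 (GRCh37, minus strand): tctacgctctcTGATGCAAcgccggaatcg
TARS, chr5:33441062-33441091 (GRCh37, plus strand): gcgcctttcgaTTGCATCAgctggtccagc
YARS2, chr12:32909010-32909039 (GRCh37, minus strand): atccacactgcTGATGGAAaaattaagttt

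Other motifs were found no more than a few times in these windows. The E-box CACGTG, which MYC and MAX bind, lay in 1 of 16 cytosolic promoters (IARS) and 3 of 14 mitochondrial promoters (CARS2, EARS2 and MARS2), against 7.26% of all promoters. The cAMP response element TGACGTCA lay in none of the 30, against 1.85% of all promoters. The core of the CTCF consensus motif, searched after the results were seen, lay in 1 (EARS2), against 2.41% of all promoters. A match is a string of letters and says nothing of binding.

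With 5-Ph-IAA for 24 h in CTCF-AID2 cells, all 20 cytosolic synthetase genes fell and none rose (limma voom, adjusted p at most 0.05 over all genes tested). Of the 13973 genes tested, 29.5% were called lower and 29.2% higher. The median log2 change of the cytosolic members was -0.32, beside -0.0024 over all genes, and single genes fell by 0.13 (TARS) to 0.57 (FARSB) on the log2 scale. Of the 16 mitochondrial genes 12 fell, 2 rose (VARS2 and NARS2) and 2 did not pass (HARS2 -0.01 and RARS2 -0.02), with a median of -0.21. The edgeR quasi-likelihood test and DESeq2 gave the same counts in both classes, and no cytosolic gene was higher at an unadjusted p below 0.05 by any of the 3 tools. One member, AARS2, changed by a log2 value of at least 1, as did 3.56% of all genes.

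NARS, which charges asparagine, had the smallest adjusted p of the cytosolic members. It had 198, 191, 197 and 187 CPM in treated CTCF-AID2 cells, against 281, 283, 291 and 278 CPM in untreated ones (log2 change -0.55 ± 0.03, SE, adjusted p = 1.8e-09). The treated and untreated libraries did not overlap. EPRS, the bifunctional enzyme for glutamate and proline, had 195, 187, 196 and 197 CPM in treated cells, against 276, 269, 275 and 265 CPM in untreated cells (log2 change -0.49). LARS, the leucyl enzyme, had 205, 202, 203 and 209 CPM in treated cells, against 277, 268, 278 and 276 CPM in untreated cells (log2 change -0.43). Both were lower in every treated library than in any untreated one. FARSB had 47.5, 48.6, 47.5 and 50.01 CPM in treated cells, against 76.0, 69.3, 69.7 and 71.9 CPM in untreated cells. Its log2 change of -0.57 ± 0.04 was the largest fall among the cytosolic genes, and its groups did not overlap either. Its partner FARSA, the α-subunit of the same enzyme, changed by -0.36.

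The falls were spread over the cytosolic enzymes. The 8 genes of the multi-synthetase complex all fell, with a median log2 change of -0.39, and the 12 genes outside it all fell, with a median of -0.26. Of the 3 scaffold genes of the complex, AIMP1 fell by 0.26, AIMP2 by 0.40 and EEF1E1 by 0.48 on the log2 scale. The smallest changes of the cytosolic class were those of TARS (-0.13), AARS (-0.14) and QARS (-0.15).

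AARS2, the mitochondrial alanyl-tRNA synthetase (chr6:44266468-44281084, GRCh37, minus strand), stood apart from every other member. It had 8.34, 8.22, 7.97 and 8.37 CPM in treated CTCF-AID2 cells, against 43.8, 40.3, 41.6 and 40.8 CPM in untreated ones. That is 0.198 of the untreated level (log2 change -2.34 ± 0.05, adjusted p = 1.9e-13). The next largest fall of any member was that of FARSB. The genes that start within 100 kb of the start of AARS2 were looked up after this fall was seen. Of 5 such genes tested, 3 were lower and 0 higher, by limma and at an adjusted p of at most 0.05. SLC35B2, a transporter of the sulfate donor PAPS that starts 55457 bases away, changed by -2.21, SLC29A1 by -0.57 and HSP90AB1 by -0.39. NFKBIE and CDC5L had log2 values of 0.00 and 0.04, with adjusted p of 0.96 and 0.2.

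MARS2, the mitochondrial methionyl enzyme (chr2:198570093-198573119, GRCh37, plus strand), had 25.6, 26.8, 25.2 and 26.3 CPM in treated cells, against 35.7, 37.1, 36.3 and 36.7 CPM in untreated cells (log2 change -0.49 ± 0.03, adjusted p = 1.1e-08). VARS2, the mitochondrial valyl enzyme (chr6:30881982-30894236, GRCh37, plus strand), had 27.8, 31.2, 28.3 and 28.6 CPM in treated cells, against 17.6, 18.5, 18.5 and 17.4 CPM in untreated cells. Neither gene's groups overlapped, and VARS2 moved the other way from most of its class (log2 change 0.69 ± 0.06, adjusted p = 1.4e-07). The counts of VARS2 were not whole numbers in any of the 28 libraries, so some reads were not assigned to 1 gene and its level is uncertain. The reason was not tested. The same holds for HARS2. NARS2 (chr11:78146666-78286239, GRCh37, minus strand), the other riser, had 135, 131, 137 and 124 CPM in treated cells, against 105, 108, 111 and 109 CPM in untreated cells (log2 change 0.29 ± 0.03). Its cytosolic counterpart NARS fell, as described above. Besides AARS2 and MARS2, the other 10 mitochondrial genes that fell had log2 changes between -0.13 (CARS2) and -0.39 (LARS2). Of all 34 members called, CARS2 alone lost its call under other settings, among them library sizes alone and leaving out any of 4 single libraries.

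With IAA for 24 h in WT cells, which lack the degron, the cytosolic class went the other way. Of its 20 genes 12 rose and 1 fell (FARSB), whereas 9.35% of all genes were called higher and 9.57% lower. The median log2 change was 0.21, beside 0.01 over all genes. Of the 16 mitochondrial genes 0 rose and 2 fell (WARS2 and FARS2), with a median of -0.07, and no mitochondrial gene was higher at an unadjusted p below 0.05 by limma, edgeR or DESeq2. The 12 cytosolic risers were WARS (1.00), SARS (0.72), CARS (0.67), GARS (0.56), MARS (0.55), IARS (0.44), AARS and YARS (both 0.42), TARS (0.27), NARS (0.22), LARS (0.19) and EPRS (0.14), each as a log2 change. EPRS lost its call with library sizes alone and without any of 3 single WT libraries. With RLE factors 12 members rose and 6 fell, and with library sizes alone 11 rose and 6 fell, beside 12 and 3 with TMM factors. The number lower was also 5 and 7 when replicate 1 or replicate 4 of the treated CTCF-AID2 cells, which share the estimate of spread, was left out.

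WARS, the tryptophanyl enzyme (chr14:100800127-100843142, GRCh37, minus strand), had 126 and 124 CPM in IAA-treated WT cells, against 62.1 and 63.6 CPM in untreated WT cells. That is a 1.99-fold level (log2 change 1.00 ± 0.06, adjusted p = 8.6e-08). SARS, the seryl enzyme (chr1:109756540-109780804, GRCh37, plus strand), had 209 and 205 CPM with IAA, against 125 and 126 CPM without (log2 change 0.72 ± 0.04, adjusted p = 5.2e-08). Both genes were higher in every treated library than in either untreated one. CARS, the cysteinyl enzyme, had 96.4 and 97.8 CPM with IAA, against 60.7 and 61.1 CPM without (log2 change 0.67 ± 0.05). MARS, the methionyl enzyme, had 277 and 279.9 CPM with IAA, against 189 and 191 CPM without (log2 change 0.55 ± 0.04). The groups of CARS and MARS did not overlap. With 2 libraries against 2 this says little, since the groups of QARS and DARS, which were not called, did not overlap either. MARS lies antisense to DDIT3, which encodes the stress factor CHOP and was itself called higher with IAA (log2 change 1.03), and the use of strand in counting is not stated.

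**Figure D2:**
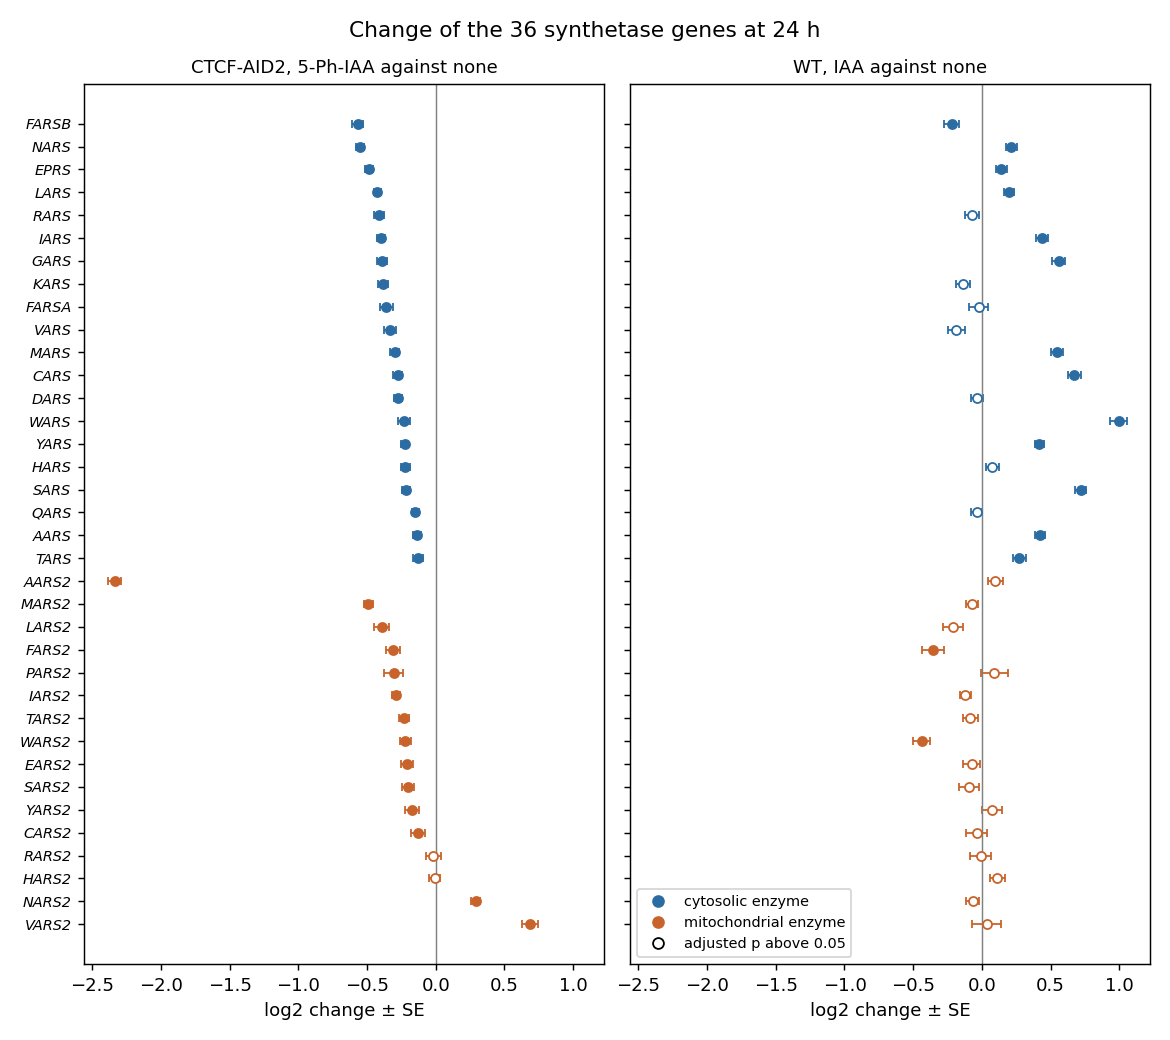
Log2 change ± SE of the 36 synthetase genes at 24 h, in CTCF-AID2 cells with 5-Ph-IAA against none (left) and in WT cells with IAA against none (right), in 1 order of genes. Filled points had an adjusted p of at most 0.05. All 20 cytosolic points lie below 0 on the left and 12 filled ones lie above 0 on the right, and AARS2 stands at -2.34 on the left.

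Not all of the cytosolic class moved with IAA. Of the 8 genes of the multi-synthetase complex 4 rose (EPRS, IARS, LARS and MARS) and 0 fell, and the others had values of -0.04 (QARS), -0.07 (RARS), -0.14 (KARS) and -0.04 (DARS) that did not pass. At an unadjusted p below 0.05, 1 of the 8 was lower by limma and by edgeR, and DESeq2 called 1 lower. Of the 12 genes outside the complex 8 rose and 1 fell. FARSB had 78.0 and 69.6 CPM with IAA, against 87.2 and 84.2 CPM without (log2 change -0.22 ± 0.06, adjusted p = 0.015), and lost its call without replicate 2 with IAA and without replicate 1 of the untreated cells. FARSA had a log2 value of -0.02.

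The 6 cytosolic genes whose promoters held TGATGNAA were AARS, CARS, IARS, MARS, NARS and TARS, shown above. All 6 were among the risers, with log2 changes between 0.22 and 0.67 and a median of 0.43. Of the 10 cytosolic genes with a promoter and no match, 4 rose, with values between -0.22 and 1.00 and a median of 0.03. WARS and SARS, the largest risers, were among those 4. This split is a description of 16 genes, and no test was made of it.

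Among the mitochondrial genes, WARS2, which charges tryptophan like WARS, had 16.8 and 17.9 CPM in IAA-treated WT cells, against 23.2 and 24.0 CPM in untreated ones (log2 change -0.44 ± 0.06, adjusted p = 2.0e-04). FARS2, the phenylalanyl enzyme, had 9.16 and 9.53 CPM with IAA, against 11.7 and 12.2 CPM without (log2 change -0.36 ± 0.08, adjusted p = 0.0067). Neither gene's groups overlapped, though FARS2 lost its call without replicate 2 of the untreated cells. IARS2, the isoleucyl enzyme, had 117 and 111 CPM with IAA, against 122 and 125 CPM without, and its log2 value of -0.12 ± 0.04 did not pass (adjusted p = 0.06). AARS2 and VARS2, which moved most in CTCF-AID2 cells, had log2 values of 0.10 and 0.03 here with adjusted p of 0.24 and 0.86.

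The difference between the treatment effects was tested directly, as the effect in CTCF-AID2 cells minus the effect in WT cells. Of the cytosolic genes 18 were lower by this measure and 0 higher, by limma, edgeR and DESeq2 alike, with QARS (-0.11) and VARS (-0.15) not passing. None was higher at an unadjusted p below 0.05, and 20.9% of all genes were called lower and 19.3% higher. The median of the cytosolic class was -0.59, beside -0.02 over all genes. Of the mitochondrial genes 5 were lower (AARS2, MARS2, PARS2, YARS2 and IARS2) and 3 higher (VARS2, NARS2 and WARS2), with a median of -0.13.

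The lowest difference of all members was that of AARS2, at -2.43 ± 0.07 (adjusted p = 3.4e-11), and the highest was that of VARS2, at 0.65 ± 0.12 (adjusted p = 5.6e-04). AARS2 had 36.8 and 40.8 CPM in IAA-treated WT cells, against 36.2 and 36.4 CPM in untreated ones. VARS2 had 10.3 and 12.4 CPM in IAA-treated WT cells, against 10.2 and 12.03 CPM in untreated ones. The WT groups of VARS2 overlapped and those of AARS2 lay next to each other, whereas the CTCF-AID2 groups of both genes, given above, were apart. WARS had the lowest difference among the cytosolic genes, at -1.23 ± 0.08. It had 49.3, 50.05, 49.2 and 55.9 CPM in treated CTCF-AID2 cells, against 62.7, 61.6, 55.8 and 59.7 CPM in untreated ones, and these groups overlapped at 1 treated and 1 untreated library. The other cytosolic genes called had differences between -0.24 (DARS) and -0.95 (CARS).

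**Figure D3:**
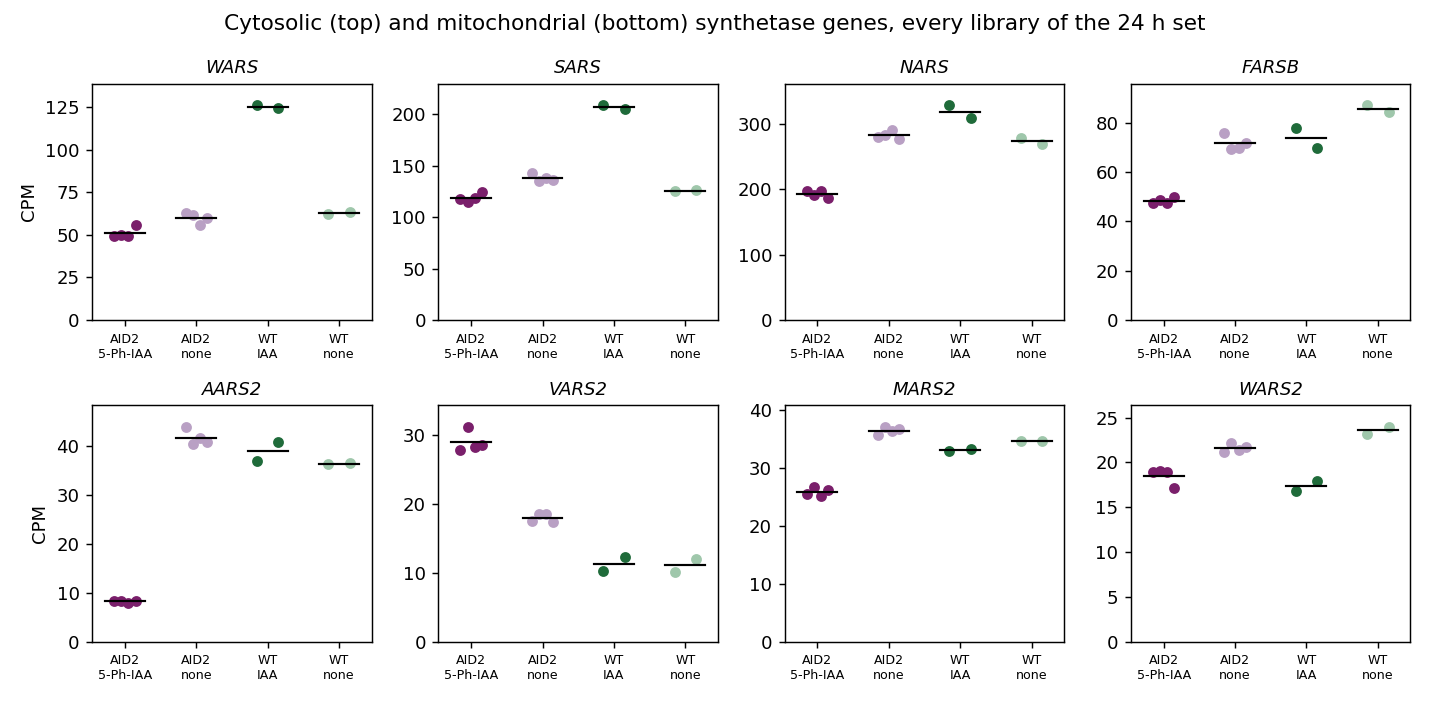
CPM of 4 cytosolic genes (top) and 4 mitochondrial genes (bottom) in every library of the 24 h set, with treated left of untreated in each line, each point 1 library and the bar the group mean. WARS and SARS are high in the 2 WT libraries with IAA, at 126 and 124 and at 209 and 205 CPM, and AARS2 is low in the 4 treated CTCF-AID2 libraries, at 7.97 to 8.37 CPM.

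Library by library, with each gene set against its mean in the untreated libraries of its line, the cytosolic class median was -0.35, -0.33, -0.36 and -0.25 in the 4 treated CTCF-AID2 libraries, against -0.03 to 0.04 in the 4 untreated ones, as log2 CPM. In the treated CTCF-AID2 libraries 0 of the 20 cytosolic genes lay above the untreated mean. The cytosolic class median was 0.25 and 0.16 in the IAA-treated WT libraries, against 0.01 and -0.01 in the untreated ones, with 13 and 14 of the 20 genes above the untreated mean. The mitochondrial class median ran from -0.30 to -0.13 in treated CTCF-AID2 libraries, against -0.02 to 0.02 in untreated ones, and was -0.08 and -0.05 in IAA-treated WT libraries. The class medians thus had the same sign in treated CTCF-AID2 libraries and opposite signs in IAA-treated WT libraries.

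**Figure D4:**
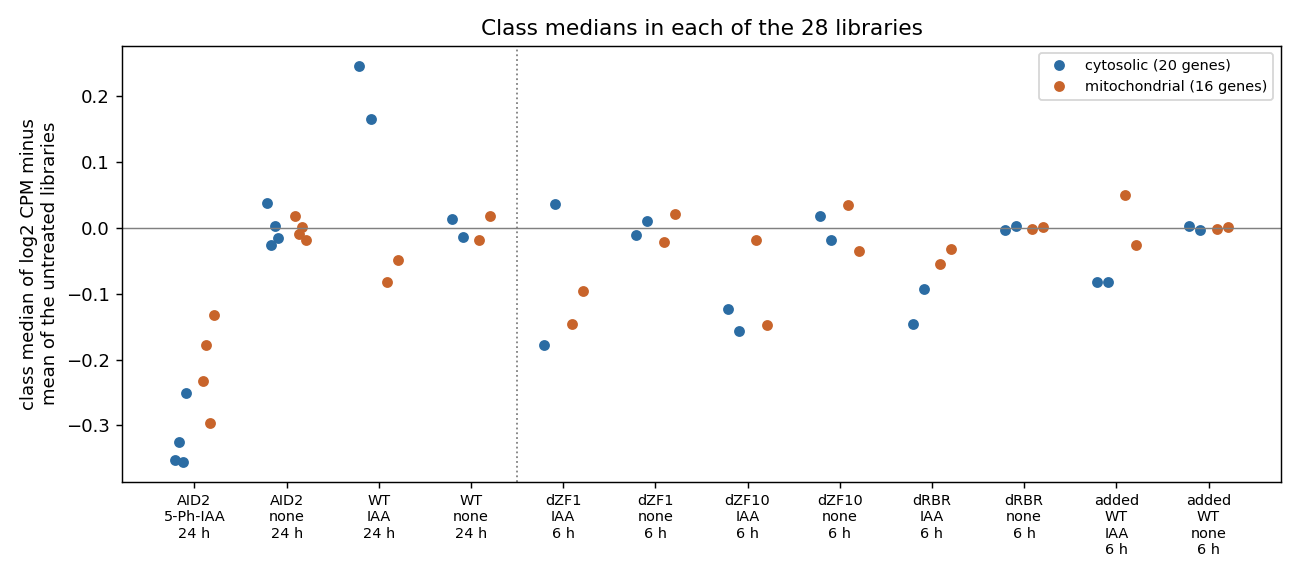
Median over the cytosolic (20 genes) and mitochondrial (16 genes) synthetases of log2 CPM minus the mean of the untreated libraries of the line, 1 point for each class in each of the 28 libraries. The 24 h set is left of the dotted line. Cytosolic medians lie at -0.36 to -0.25 in treated CTCF-AID2 cells and at 0.16 and 0.25 in WT cells with IAA.

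Genes that act beside the synthetases were counted in the same fits. Of 20 genes of amino acid uptake and synthesis, 0 rose and 16 fell in CTCF-AID2 cells with 5-Ph-IAA (median log2 change -0.26), and 19 rose and 1 fell in WT cells with IAA (median 0.64). MTHFD2, of mitochondrial folate metabolism, changed by -0.92 in treated CTCF-AID2 cells and by 0.63 in IAA-treated WT cells. GPT2, a mitochondrial alanine transaminase, changed by -0.67 and by 1.12 in the same comparisons. The cystine transporter gene SLC7A11 and the asparagine synthetase gene ASNS rose by 1.71 and 1.18 on the log2 scale in WT cells with IAA. In CTCF-AID2 cells none of the 20 was higher at an unadjusted p below 0.05, and edgeR and DESeq2 also called 0 higher.

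Of 18 regulators and targets of eIF2 kinase signalling, 17 were tested. With IAA in WT cells 13 rose and 2 fell (median 0.73), and with 5-Ph-IAA in CTCF-AID2 cells 4 rose and 8 fell (median -0.10). CHAC1, a glutathione-degrading enzyme induced through ATF4, rose by 1.92 and DDIT4, an inhibitor of mTOR signalling, by 0.87 on the log2 scale in WT cells. ATF4 had 529 and 522 CPM in IAA-treated WT cells, against 353 and 341 CPM in untreated ones (log2 change 0.60). It had 402, 396, 410.2 and 409.7 CPM in treated CTCF-AID2 cells, against 461, 449, 457 and 442 CPM in untreated ones (log2 change -0.16). The groups overlapped in neither line. In CTCF-AID2 cells the smallest adjusted p of this list were those of DDIT4 (-0.34) and EIF2AK3, the gene of the kinase PERK (0.35).

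Of 35 cytosolic translation factors 1 rose and 27 fell in CTCF-AID2 cells (median -0.19) and 2 rose and 6 fell in WT cells (median -0.06). ABCE1, which splits terminated ribosomes, changed by -0.49 and the release factor GSPT1 by -0.35 in CTCF-AID2 cells. Of 16 mitochondrial translation factors 0 rose and 15 fell in CTCF-AID2 cells (median -0.27), with the smallest adjusted p for the elongation factor GFM1 (-0.60) and LRPPRC (-0.42), and 0 rose and 2 fell in WT cells. By edgeR and DESeq2 none of these 16 was called higher in either line, and none was higher by limma at an unadjusted p below 0.05. Of 15 other tRNA charging genes 14 were tested, and 4 rose and 9 fell in CTCF-AID2 cells. DTD1, an enzyme that removes D-amino acids from tRNAs, rose by 0.86 on the log2 scale. In WT cells 1 of these genes rose and 2 fell. MYC, which drives many translation genes, had 186, 192, 179.8 and 183 CPM in treated CTCF-AID2 cells, against 334, 341, 344 and 347 CPM in untreated ones (log2 change -0.88). It had 171 and 185 CPM in IAA-treated WT cells, against 204 and 195 CPM in untreated ones (log2 change -0.16). The part of ATF4 or MYC in the levels of the members was not tested.

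At 6 h, in the mean of the effects in the 4 lines, 12 of 20 cytosolic genes fell (median -0.13) and 5 of 16 mitochondrial genes fell (median -0.06), and 0 of the 36 rose. Of the 13902 genes tested 26.4% were called lower and 25.1% higher, with a median of -0.01. One member, VARS2, was higher at an unadjusted p below 0.05 (0.23, adjusted p = 0.067), and edgeR and DESeq2 each called it higher. No member reached a log2 change of 1 in size, as 1.45% of all genes did. Without replicate 2 of the auxin-treated dZF1 cells, 1 of these libraries that differed so much, 20 members fell and 1 rose, and without replicate 1 of them 18 fell and 5 rose. With no filter on low counts 9 fell. The shares over all genes above are from the fit with all libraries and the filter. Those of the other fits are not given, so these counts only show how the calls move.

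WARS had the smallest adjusted p of the cytosolic members at 6 h. In dZF1 it had 53.2 and 61.4 CPM with auxin, against 66.3 and 67.6 CPM without. The dZF10 line gave 56.0 and 60.3 CPM with auxin, against 70.1 and 72.5 CPM without, and dRBR gave 51.7 and 57.1 CPM, against 73.1 and 71.7 CPM. The added WT line had 57.6 and 63.8 CPM with auxin, against 69.3 and 68.8 CPM without. In each of the 4 lines WARS was lower in both treated libraries than in both untreated ones (mean log2 change -0.28 ± 0.04, adjusted p = 1.5e-04). This is the gene with the largest rise in WT cells with IAA at 24 h. QARS, next in rank, had 199 and 175 CPM with auxin, against 225 and 233 CPM without, in dZF1, and 187 and 204 CPM against 229 and 229.7 CPM in dZF10. It had 209 and 202 CPM with auxin, against 233 and 235 CPM without, in dRBR, and 181 and 193 CPM against 226 and 214 CPM in the added WT line. Here too the treated libraries were lower than the untreated ones in each line (mean log2 change -0.24 ± 0.04, adjusted p = 1.8e-04). VARS had the largest mean fall of the cytosolic genes, of 0.41 ± 0.08 on the log2 scale, and was called in dZF1 alone (-0.71), where its treated libraries had 129 and 80.6 CPM, against 161 and 171 CPM in the untreated ones.

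PARS2, the least abundant member (chr1:55222571-55230196, GRCh37, minus strand), fell most at 6 h. In dZF1 it had 3.76 and 4.18 CPM with auxin, against 7.42 and 8.61 CPM without. In dZF10 it had 5.57 and 4.98 CPM with auxin, against 7.00 and 7.26 CPM without, and in dRBR 4.42 and 4.68 CPM with auxin, against 8.71 and 7.89 CPM without. The added WT line had 5.34 and 4.69 CPM with auxin, against 6.77 and 6.84 CPM without. The groups did not overlap in any line, and PARS2 was the 1 member called lower in all 4 lines. Its log2 change was -1.002 in dZF1, -0.85 in dRBR, -0.45 in dZF10 and -0.46 in the added WT line (mean -0.69 ± 0.06, adjusted p = 2.9e-06). In CTCF-AID2 cells at 24 h its change was -0.31 ± 0.07. MARS2 had 23.5 and 18.97 CPM with auxin, against 31.8 and 33.6 CPM without, in dZF1, and 26.9 and 23.6 CPM against 36.3 and 32.8 CPM in dZF10. It had 23.8 and 24.9 CPM with auxin, against 30.4 and 30.7 CPM without, in dRBR, and 25.1 and 26.5 CPM against 30.4 and 31.7 CPM in the added WT line. The groups of MARS2 were apart in each line (mean log2 change -0.42 ± 0.05, adjusted p = 3.4e-05), and it was called in dZF1 and dZF10. AARS2, the largest fall at 24 h, changed by -0.15 ± 0.04 at 6 h (adjusted p = 0.011).

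**Figure D5:**
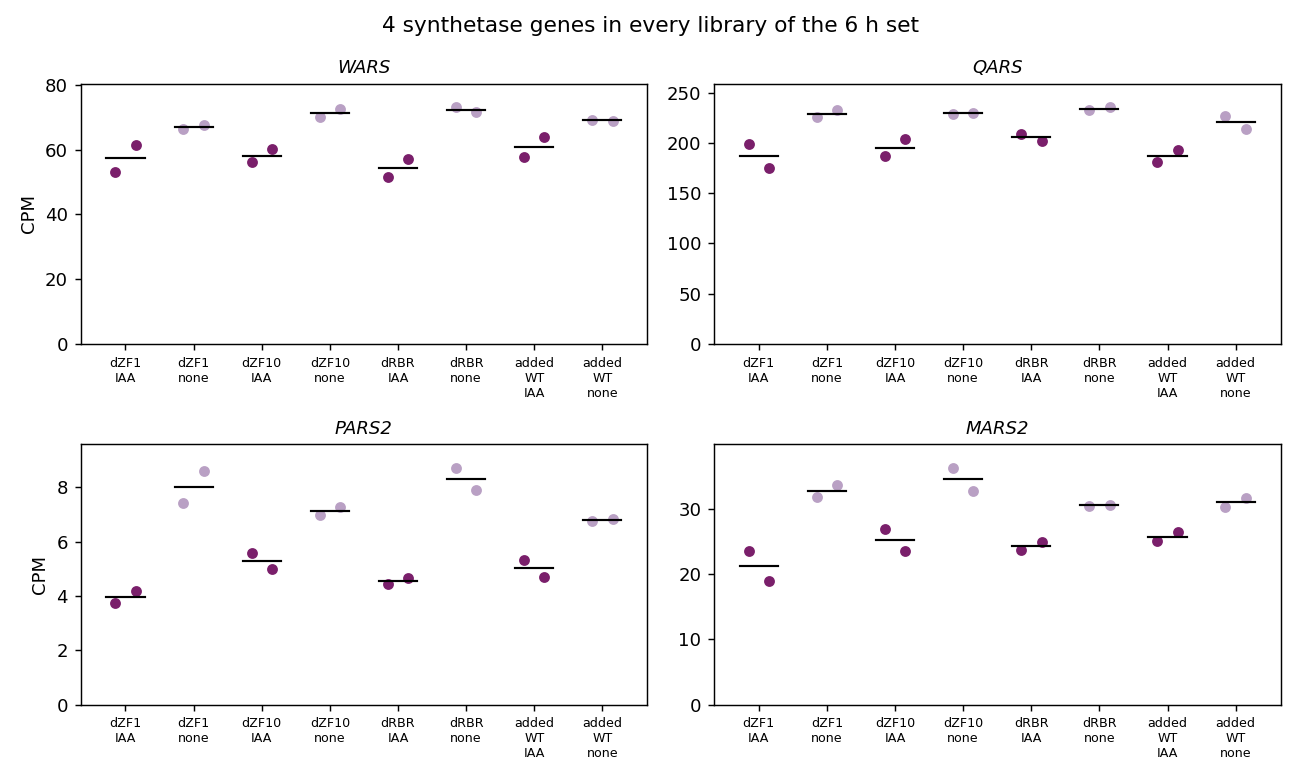
CPM of WARS, QARS, PARS2 and MARS2 in every library of the 6 h set, with auxin left of none in each of the 4 lines, each point 1 library and the bar the group mean. Every treated point lies below the untreated points of its line, with PARS2 at 3.76 and 4.18 CPM in treated dZF1 cells, against 7.42 and 8.61 CPM in untreated ones.

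Line by line, 8 members fell in dZF1, 4 in dZF10, 2 in dRBR (WARS and PARS2) and 2 in the added WT line (QARS and PARS2), and 0 rose in any line. Of all genes, dZF1 had 16.4% called lower and 17.1% higher, dZF10 had 9.24% and 8.88%, dRBR had 5.68% and 4.8%, and the added WT line had 7.21% and 6.45%. At an unadjusted p below 0.05 limma had 2 members higher in dZF1 and 0 in the other lines. By edgeR 0 and by DESeq2 1 member was called higher in dZF1, and both called 0 in the other lines. These counts depended on the dZF1 libraries, since all lines share 1 estimate of spread. The 2 auxin-treated dZF1 libraries also differed in the direction of the cytosolic class. Its median, as log2 CPM minus the untreated mean of the line, was -0.18 in replicate 1 and 0.04 in replicate 2. Of the 20 cytosolic genes, 1 and 11 lay above that mean. In the treated libraries of the other lines the cytosolic median was -0.16 to -0.08. Without replicate 2 of the auxin-treated dZF1 cells, 13 members fell in dZF1 (1 rose), 14 in dZF10, 7 in dRBR (1 rose) and 5 in the added WT line. The shares over all genes in that smaller fit are not given, so its counts are no result about the members. MYC at 6 h had a mean log2 change of -1.22 and ATF4 of -0.08, the last not called.

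No member differed between a deletion line and the added WT line in its response to auxin, by limma at an adjusted p of at most 0.05. These comparisons share the added WT libraries. Over all genes 0.331% were called for dZF1, 0.0432% for dZF10 and 0% for dRBR. At an unadjusted p below 0.05 by limma, 5 of the 36 members differed for dZF1, 0 for dZF10 and 2 for dRBR. Of all 13902 genes tested, 2403 differed at that threshold for dZF1, 391 for dZF10 and 350 for dRBR. At the adjusted threshold edgeR called 0 members in each and DESeq2 1 in dZF1. PARS2 had a difference of -0.55 for dZF1 (95% interval -0.92 to -0.17, adjusted p = 0.16), 0.01 for dZF10 (-0.36 to 0.37) and -0.39 for dRBR (-0.77 to -0.02). With 2 libraries in each group these intervals are about as wide as the effects are large. Without replicate 1 of the auxin-treated dZF1 cells, 7 members were called higher and 3 lower for dZF1, and without replicate 2 of them 0. Shares over all genes in these smaller fits are not given either.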

How the data were processed

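The RNA-seq libraries of SEM cells numbered 28, of which 12 formed the 24 h set and 16 the 6 h set. Per the labels and the methods, the authors used Trim Galore 0.6.3 for trimming, STAR 2.7.9a for mapping to hg19 and RSEM 1.3.1 for gene quantification on Gencode 19. The deposited values used were expected counts per gene, which are estimated and not normalized, and TPM. The labels name a 3′ kit, the methods total stranded RNA-seq, and the use of strand in counting is not stated. The 13 members that overlap another expressed gene are therefore uncertain (AARS, GARS, HARS, IARS, KARS, MARS, WARS, YARS, CARS2, EARS2, HARS2, WARS2 and YARS2). Non-whole counts were fewer in WT than in CTCF-AID2 libraries at 24 h, so lines were compared only through their effects. Matrices that repeat the 6 h set were not used, and no sample columns were left unused.

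Counts were rounded and each set was fitted with limma 3.58.1 (voom, TMM factors from edgeR 4.0.16, R 4.3.3), a mean per group and genes above 1 CPM in at least 1 library. Adjustment of p-values was by Benjamini-Hochberg over all genes, and called means an adjusted p of at most 0.05. Printed CPM are scaled by TMM. The share of all genes whose groups do not overlap is not given, so non-overlap only describes a gene's values. Total counts of 25.8 to 60.7 M leave each member at 134 counts (PARS2) or more in every library, and that count sets the precision for the least abundant genes. Gene positions came from Gencode v44 lifted to GRCh37. Members were matched to 30 RefSeq promoters by Ensembl gene identifier, or by current symbol where RefSeq listed no such identifier. Alternatives were DESeq2 1.42.0, edgeR's quasi-likelihood test, no filter, a stricter filter (4 libraries), RLE factors or library sizes alone, a replicate block, only the groups compared, and each library left out. The fits were tested on simulated counts. The labels do not say that replicate numbers mark shared cultures or days, so the numbers were not used as pairs.

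Members and lists were chosen with earlier results of these data known. Values in every library are given for the 4 cytosolic and 3 mitochondrial members with the smallest adjusted p in each 24 h comparison, for 2 and 2 in the mean effect at 6 h, and for the highest and lowest difference of the 24 h effects. Those of NARS2, VARS and the neighbours of AARS2 were added after their values were seen. For other lists the 2 members with the smallest adjusted p are named, beside ATF4, MYC and CTCF, and a few others chosen after their values were seen (ASNS and the scaffold genes).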

Additional observations from a re-analysis of the deposited data

Results flagged for a closer look

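In the CTCF-AID2 groups of 4 libraries, 72 sets of values were looked at for a single library far from the other 3, and 4 were found, where chance gives about 1 in 20. These are VARS at 140.4 CPM in untreated replicate 3, WARS at 55.9 CPM in treated replicate 4, WARS2 at 17.2 CPM in treated replicate 4 and YARS2 at 34.7 CPM in untreated replicate 4.

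The effect of 24 h of treatment differed between CTCF-AID2 and WT cells for 26 members, by the limma test of the difference (CTCF-AID2 minus WT, log2). Of the mitochondrial genes, AARS2 had -2.43, MARS2 -0.42, PARS2 -0.40, YARS2 -0.24 and IARS2 -0.17, and WARS2 had 0.22, NARS2 0.36 and VARS2 0.65. Of the cytosolic genes, WARS had -1.23, CARS and GARS -0.95, SARS -0.94, MARS -0.85, IARS -0.84, NARS -0.77, YARS -0.64, EPRS -0.63, LARS -0.62, AARS -0.56, TARS -0.40, FARSB -0.35, RARS -0.34, FARSA -0.34, HARS -0.30, KARS -0.25 and DARS -0.24.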

How the results depend on the processing

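For both effects at 24 h, their difference and the mean at 6 h, no member changed direction under any alternative where it was called. Direction was not checked for the single 6 h lines or for the deletion lines against the added WT line. In CTCF-AID2 cells at 24 h leaving out single libraries gave 31 to 32 members lower and 2 higher, with class medians of -0.36 to -0.30 (cytosolic) and -0.25 to -0.19 (mitochondrial). In WT cells it gave 11 to 12 higher and 2 to 7 lower (medians 0.16 to 0.24 and -0.09 to -0.05), and the number lower, 3, became 6 with RLE factors, library sizes alone or only the groups compared and 7 with DESeq2. For the difference it gave 20 to 28 lower and 2 to 3 higher (medians -0.60 to -0.58 and -0.17 to -0.11). In the mean at 6 h it gave 14 to 20 lower and 0 to 5 higher (medians -0.15 to -0.10 and -0.07 to -0.04), edgeR and DESeq2 gave 1 higher, and no filter gave 9 lower.

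Leaving out single libraries gave 3 to 13 lower and 0 to 6 higher in dZF1, 0 to 14 lower in dZF10, 1 to 7 lower and 0 to 1 higher in dRBR, and 0 to 5 lower in the added WT line. Against the added WT line it gave 0 to 3 lower and 0 to 7 higher in dZF1. In dZF1, 8 lower, DESeq2 called 1 higher, no filter gave 4 lower and only the groups compared 0. In dZF10, 4 lower, no filter gave 1. In dRBR, 2 lower, only the groups compared gave 5 lower and 1 higher. The added WT line, 2 lower, had 1 with library sizes alone, 0 with no filter and 8 with only the groups compared. DESeq2 called 1 member higher for dZF1 against the added WT line. Of the cytosolic promoters with TGATGNAA, 2 kept it before the gene start. Shares over all genes under the alternatives are not given, so these counts show only how the calls move with the processing. The cause of these changes was not tested.

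With the replicate number as a block, 31 members were lower in CTCF-AID2 cells, 22 lower and 2 higher for the difference, 17 lower in the mean at 6 h, 10 lower in dZF1 and 1 in the added WT line. Treated and untreated libraries of 1 number deviated together across genes in dZF10 (r = 0.429), the added WT line (0.309), dRBR (0.265) and, weakly, WT cells at 24 h (0.112), and not in all pairs of CTCF-AID2 cells (-0.337 to 0.101) or in dZF1 (-0.299). Crossing the dZF1 numbers, an alternative added after seeing the data, gave 19 lower and 1 higher in the mean at 6 h and 1 lower in the added WT line. With 2 libraries in a group, as in WT cells and all 6 h lines, small changes were not detectable.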
